A study of Mus musculus with 16 samples.

Results

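The loci of Plekha2, Mctp1 and Kctd20 hold 12 of the 33773 open regions found by ATAC-seq in mouse haematopoietic stem cells (HSCs), the cells at the top of blood formation. ATAC-seq marks accessible DNA by the insertions of a transposase. Regions were made by merging the peaks of all 16 libraries wherever they overlapped, and those called in at least 2 libraries were kept. A region belongs to a gene when that is the nearest protein-coding gene within 100 kb of its median summit, which gives 6 regions to Plekha2, 4 to Mctp1 and 2 to Kctd20. Regions are numbered along the chromosome within each gene, and coordinates (first base 1) refer to mm10, the mouse build GRCm38. In 4 groups of 4 libraries, HSCs of male B6 mice were taken directly from young donors (young pre) or old donors (old pre), or from young BJ recipients 3 months after transplantation of young (young post) or old (old post) HSCs. A single donor of 24 months stood behind every old replicate, and a pool of 3 to 4 donors of 8 to 12 weeks behind every young one. Post libraries came from the pooled marrow of 5 lethally irradiated recipients that had also received Sca-1 depleted BJ helper marrow. Sorting on a marker of donor origin is not described for the post samples, and HSCs of host or helper origin cannot be told apart from donor HSCs in them. Stage and transposition day cannot be told apart either, since no day held both pre and post libraries.

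The 3 genes were chosen from their calls in old against young libraries. One region of each gene, called the leading region below, was called in 7 of 8 young and 0 of 8 old libraries. Those calls, and the test of age over all regions from which they stood out, describe how the genes were picked, and no test of age is used as support for any of the 12 regions.

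Plekha2 encodes an adaptor protein (also known as TAPP2) whose pleckstrin homology domains bind a membrane phosphoinositide formed when PI 3-kinase is active, and which has been studied mostly in B cells. Kctd20 encodes a BTB-domain protein reported to favour the activity of Akt, a kinase of the same pathway. In HSCs, PI 3-kinase and Akt signalling is known for its part in the balance between quiescence and proliferation. Mctp1 encodes a membrane protein with several C2 domains, protein folds that bind calcium.

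RefSeq (build GRCm38.p6) gives promoter sequence for Mctp1 and Kctd20, of the 3 genes. They are shown because both starts lie inside regions called in nearly every library that had a long peak list, and so mark the steadily open part of each locus. Each sequence holds the 250 bases before the first listed start, at chr13:76579347-76579596 for Mctp1 and chr17:28952186-28952435 for Kctd20, both on the plus strand and written 5′ to 3′. Capitals mark matches, on either strand, to the motifs searched.
Mctp1: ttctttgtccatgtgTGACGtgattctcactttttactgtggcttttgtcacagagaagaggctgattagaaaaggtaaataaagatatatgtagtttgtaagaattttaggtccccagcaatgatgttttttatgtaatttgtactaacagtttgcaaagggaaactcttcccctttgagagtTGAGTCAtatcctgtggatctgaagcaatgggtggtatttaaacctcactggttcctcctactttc
Kctd20: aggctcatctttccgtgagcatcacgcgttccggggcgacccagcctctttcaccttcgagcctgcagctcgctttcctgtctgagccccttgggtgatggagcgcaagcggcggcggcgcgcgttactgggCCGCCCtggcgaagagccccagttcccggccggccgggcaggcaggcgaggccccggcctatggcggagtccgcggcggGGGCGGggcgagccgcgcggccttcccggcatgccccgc
The Kctd20 stretch had 73.6% G and C and 32 CpG dinucleotides, and the Mctp1 stretch 37.6% and 1, against medians of 52.4% and 6 over all 32851 promoter entries. Kctd20 held the GC box GGGCGG at 118 and 39 bases before the start, the first of them on the opposite strand, and 32.7% of all entries held at least 1. Mctp1 held the short CRE motif TGACG at 235 bases and the AP-1 motif TGANTCA at 66 bases before the start, which 17.8% and 6.75% of entries held. The capitals do not overlap. Neither stretch matched the ETS core CCGGAAG (6.91% of entries), the CCAAT box (33.8%), the RUNX motif TGTGGT (14.05%), the motif of GATA factors AGATAA (9.99%), the E-box CACGTG (6.02%) or GCGCATG, part of an NRF1 site (3.24%).

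Peak lists held 9614 to 28298 peaks in young pre, 5687 to 30520 in old pre, 30784 to 32530 in young post and 14008 to 31003 in old post. Reads per library were not used here, so the depth behind each list is unknown, and the absence of a peak does not mean closed DNA. The shortest lists were old pre 4, young pre 4 and old post 4. Of 10 HSC marker genes 8 had a region, and 5 of them had one in at least 14 libraries, while Tek and Ly6a had none. Among markers of other cells, 1 of 5 T-cell and 3 of 7 granulocyte and monocyte genes had a region, as did 4 of 5 erythroid, 4 of 4 megakaryocyte and 4 of 4 endothelial and stromal genes. Cd79a, Ms4a1, Cd3e, Elane, Mpo and the erythroid gene Alas2 were among those with none. The 13 endothelial and stromal regions were called 0 to 11 times per library in young pre and in old pre, 10 to 13 times in young post and 2 to 11 times in old post. The 5 regions of B-cell marker genes were called 0 to 4 times per library in young pre and in old pre, 3 to 5 times in young post and 0 to 5 times in old post. The part of other cells in the calls at the 3 genes was not tested.

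The leading region of Plekha2, region 2, spans chr8:25051793-25053194 (1402 bp) within the gene, 13642 bp from the lower end of the gene span to the median summit. It was called in young pre 1, 2 and 3 and in all 4 young post libraries. The size of a peak is given here as the percentile of its area, the caller's score, among all peaks of its library, taking the largest where a region held several. It stood at the 58.2, 22.9 and 26.5 percentile in young pre 1 to 3, and at 44.0, 52.3, 71.1 and 72.1 in young post 1 to 4. These were thus middling peaks, with a median percentile of 52.3. The summits of the largest peak in the 7 libraries fell within 10 bp of each other. In young post 1 and 2 the region was split into a pair of peaks, with the smaller on the side of the lower coordinate. No old library had a peak closer than 7235 bp to the region, and the nearest old peak lay up to 34285 bp away.

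The leading region of Mctp1, region 1, spans chr13:76383790-76385410 (1621 bp) inside the gene, 1801 bp from its lower end. The same 7 young libraries called it. Its peak area stood at the 65.9, 0.180 and 29.8 percentile in young pre 1 to 3 and at 23.1, 46.1, 53.6 and 43.8 in young post 1 to 4. It was the most variable of the leading regions, and in young pre 2 its area of 200.6 lay just above the smallest in the lists. In young post 1 it was split into a pair of peaks, and the summit of the largest peak lay up to 1076 bp apart between libraries. The nearest peak of an old library was between 10454 and 364956 bp away.

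The leading region of Kctd20, region 1, spans chr17:28950821-28951209 (389 bp) outside the gene, with its summit 1506 bp from the gene's lower end. The same young libraries called it, as weak peaks throughout. Its area stood at the 20.7, 7.66 and 7.76 percentile in young pre 1 to 3 and at 8.12, 3.98, 17.0 and 13.0 in young post 1 to 4. All 7 areas were below 400, the largest being 310.0. The summits nevertheless fell within 7 bp of each other. The nearest old peak was 364 bp away, which is that of region 2 of the same gene, and the farthest, in an old library without a peak there, was 81183 bp away.

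**Figure D1:**
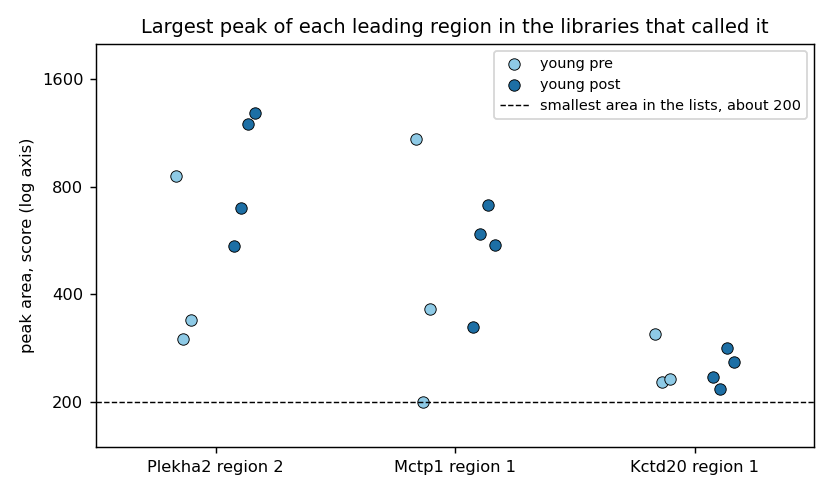
Area of the largest peak in each leading region (score, log axis) in the 3 young pre and 4 young post libraries that called it, 1 point per library. Kctd20 region 1 lies close to the smallest area in the lists, while Plekha2 region 2 reaches 1283.

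The shared pattern of calls was rare among regions called as often. Of 1417 regions called in exactly 7 of 16 libraries, 3 had no old call, and these are the leading regions. By contrast, 637 had 3 old calls and 507 had 2, and none had 7. Given a weight for each library, fitted to the calls of all regions, 2.81 of 7 calls were expected in old libraries. Over all 33773 regions, 0.00888% were called in at least 7 of 8 young and 0 of 8 old libraries. Among the 15182 regions called in 4 to 12 libraries, 0.0198% passed the weighted exact test as higher in young and 0.25% as higher in old. Because this contrast chose the genes, nothing is read from these shares about them. Just outside the threshold, regions of Gm20594 and Srsf5, a splicing factor gene, were called in 8 of 8 young libraries (4 pre, 4 post) and in 2 old pre and 2 old post, and a region of N4bp3 in 8 young, 1 old pre and 3 old post.

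**Figure D2:**
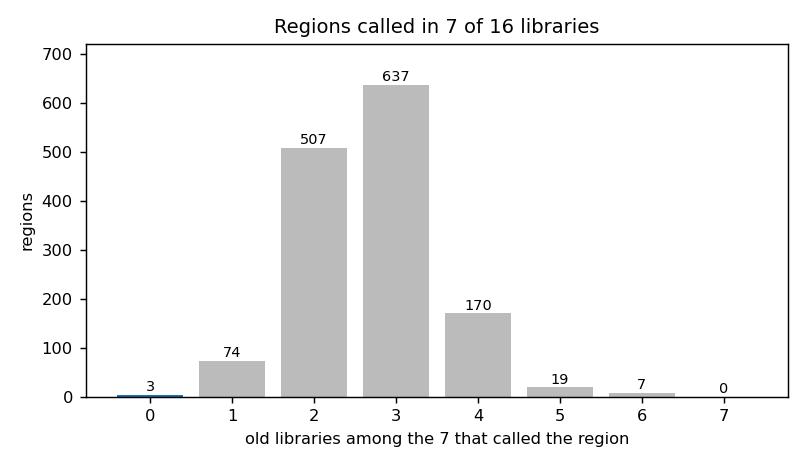
Number of regions called in exactly 7 of 16 libraries (y axis) by how many of those 7 libraries were old (x axis). The 3 regions at 0 are the leading regions of Plekha2, Mctp1 and Kctd20, and most regions hold 2 or 3 old calls.

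List length and transposition day were set beside these calls. The shortest list that called the leading regions, young pre 3, held 21346 peaks, and 5 old lists were longer than that. On day 5, young post 1 (32530 peaks) and young post 2 (30784 peaks) called all 3 regions, and old post 3 (31003 peaks) called none. On day 2, young pre 1 to 3 called all 3 regions, and old pre 3 (17299 peaks) and old pre 4 (5687 peaks) called none. On day 6 young post 3 and 4 called all 3 and old post 4 (14008 peaks) none. Old pre 1 and 2 (day 1), old post 1 and 2 (day 4) and young pre 4 (day 3) were prepared on days with a single age, and called none. Without the 3 shortest lists, each leading region was called in 7 of 7 young and 0 of 6 old libraries. That count was fixed by the choice of the regions, since young pre 4, the young library without a call, is among the lists left out. The part of list length and day in these calls was not tested. When only peaks with an area of at least 400 were kept, the young calls were 5 at Plekha2, 4 at Mctp1 and 0 at Kctd20, with 0 old calls at each. With every list shortened to at most 14008 peaks, Plekha2 region 2 kept 3 young calls, and the leading region of Kctd20 had 0. That of Mctp1 kept only its peak in young pre 1, at rank 9659 by area. It thus fell below the 2 libraries that a region needs.

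**Figure D3:**
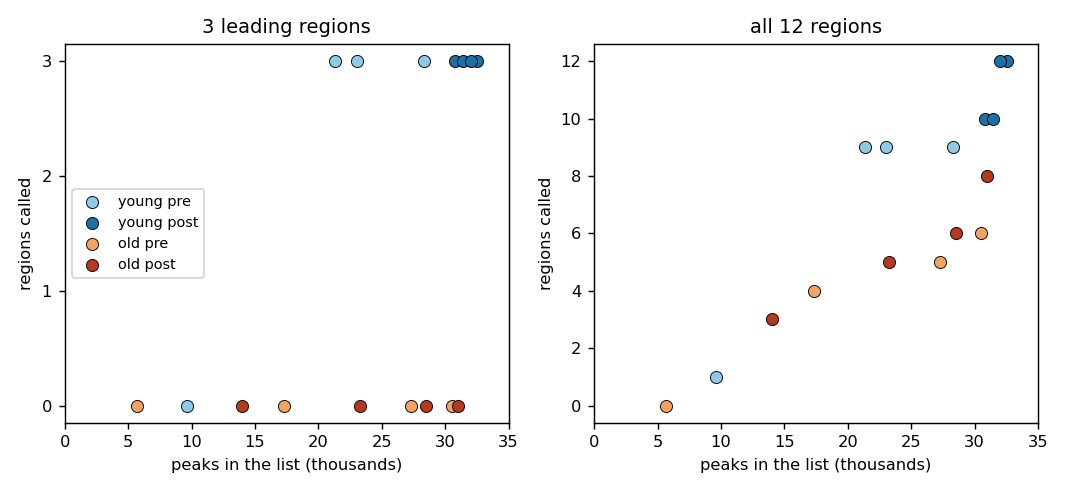
Regions called per library (y axis) against the number of peaks in its list (x axis, units of 1000 peaks), for the 3 leading regions (left) and all 12 regions (right), 1 point per library coloured by group. Long old lists, up to 31003 peaks, called 0 leading regions, and young lists from 21346 peaks called all 3.

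The leading region of each gene was chosen as the most uneven between the ages, so that the other 9 regions differed less was fixed by that choice. Of these, 7 had more young than old calls, 2 had equal numbers and 0 had more old calls. Of all regions called in 2 to 15 libraries, 68.2% had more young than old calls. Per library, 9 of the 12 regions were called in each of young pre 1 to 3 and 1 in young pre 4, against 5, 6, 4 and 0 in old pre 1 to 4. After transplantation young post 1 to 4 called 12, 10, 10 and 12 of them, and old post 1 to 4 called 5, 6, 8 and 3.

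**Figure D4:**
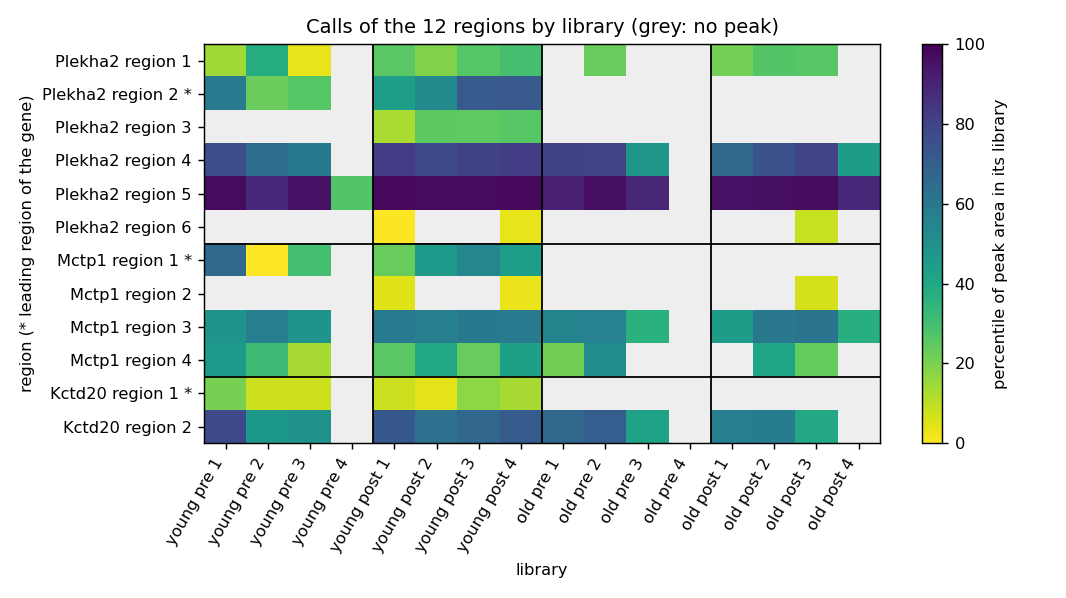
Calls of the 12 regions (rows, leading regions starred) in the 16 libraries (columns), coloured by the percentile of the peak's area in its library, with grey where there was no peak. The leading regions are filled in 7 young libraries and empty in all 8 old ones, while regions 4 and 5 of Plekha2, region 3 of Mctp1 and region 2 of Kctd20 are filled in most libraries of both ages.

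The steadily open regions of each gene were called in both ages. Plekha2 region 5 (chr8:25100991-25104026), at the upper end of the gene span, was the broadest and strongest of the 12. It was called in 15 of 16 libraries, all but old pre 4, and its area stood at the 97.1, 88.9, 95.3 and 27.3 percentile in young pre 1 to 4, 91.3, 96.2 and 89.1 in old pre 1 to 3, 97.6, 96.9, 97.1 and 97.4 in young post, and 95.0, 96.2, 96.6 and 88.9 in old post. Apart from young pre 4 these values overlapped between the ages in pre. In post every young value lay above every old one, at 96.9 to 97.6 against 88.9 to 96.6, and this difference was not tested. Its neighbour 486 bp away, region 4 (chr8:25098701-25100504), was called in 7 of 8 young and 7 of 8 old libraries, at a median percentile of 77.7 in young and 75.1 in old. The direction differed by stage, with medians of 64.6 in young pre and 79.3 in old pre, but 81.2 in young post and 70.5 in old post. The ranges overlapped in both stages, and these differences were not tested.

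At Mctp1, region 3 (chr13:76579261-76580085) covers the start at 76579597, with the median summit 27 bp beyond it. It was called in 7 of 8 young and 7 of 8 old libraries, at percentiles of 48.3 to 59.6 (median 57.0) in young and 36.2 to 61.4 (median 54.7) in old. Its summit lies 197262 bp from the lower end of the gene span, so the leading region, at 1801 bp, is far from this start. Mctp1 is on the plus strand, so that lower end is the 5′ end of the span, and the leading region lies just inside it. At Kctd20, region 2 (chr17:28951550-28952959) covers the starts at 28952436 and 28952599, but not the listed start at 28953216, which lies in no region. Region 2 was called in 7 of 8 young and 6 of 8 old libraries. Its percentiles ranged from 46.8 to 78.0 (median 67.0) in young and from 39.7 to 70.0 (median 57.5) in old, so the ages overlapped with the stages pooled. In pre they overlapped too, at 46.8 to 78.0 in young (median 48.4) and 42.3 to 70.0 in old (median 66.8). In post the percentiles did not overlap, at 62.8 to 72.6 in young and 39.7 to 57.9 in old. Percentiles depend on list length, and by rank of area the ages did overlap in post. Old post 1 (rank 9982) stood above young post 2 (11464) and young post 3 (10370). Old post 2 (12002) and old post 3 (18709) stood below every young post library. The difference in post was not tested. The leading region of Kctd20 ends 340 bp before region 2. Of all regions, 36.4% were called in at least 14 libraries, as were 3 of the 12 here.

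Some regions were called in part of the libraries of both ages. Plekha2 region 1 (chr8:25044203-25044627) was called in 3 young pre, 1 old pre, 4 young post and 3 old post libraries, as a weak peak at the 3.46 to 38.3 percentile. Mctp1 region 4 (chr13:76590819-76592154), 11812 bp from region 3 between summits, was called in 3 young pre, 2 old pre, 4 young post and 2 old post libraries. Its percentiles were 13.1 to 46.4 in young and 21.3 to 51.5 in old. Plekha2 region 6 and Mctp1 region 2 were each called in young post 1, young post 4 and old post 3 alone, at percentiles of at most 8.27 and 6.39. One further Mctp1 peak, of 241 bp, was called in old pre 2 only and is not a region by the rule.

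Plekha2 region 3 (chr8:25090941-25091550) was called in all 4 young post libraries and in no other. Its area stood at the 12.8, 25.4, 24.6 and 26.1 percentile in young post 1 to 4, and its summits fell within 10 bp of each other. Of all regions 0.743% were called in the 4 young post libraries alone. With the 3 leading regions it makes 4 of the 12 regions that were called in 4 of 4 young post and 0 of 4 old post libraries, a pattern held by 1.52% of all regions. The leading regions, but not region 3, were called in 3 of 4 young pre and 0 of 4 old pre libraries, and 0.258% of all regions had at least 3 young pre and 0 old pre calls, against 0.376% with the ages exchanged. The calls of these regions chose the genes, and the shares are given as description.

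**Figure D5:**
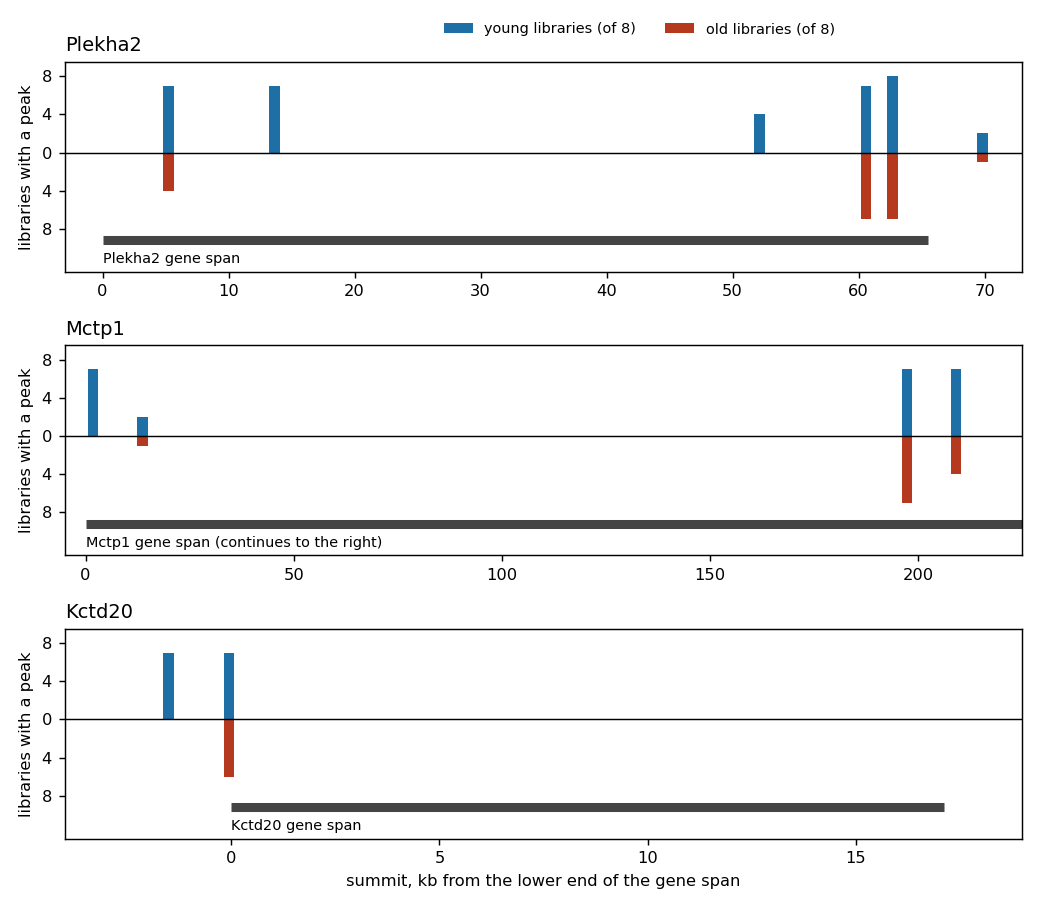
Number of young (upward) and old (downward) libraries, of 8 each, with a peak in each region, placed at its median summit in kb from the lower end of the gene span (grey bar). At each gene a region with young calls alone lies among or beside regions called in both ages.

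The comparison of post with pre asked whether the regions were called more in HSCs recovered from recipients than in fresh ones. Each leading region had 4 calls among the 8 post libraries and 3 among the 8 pre libraries. With 7 of 8 young and 0 of 8 old calls used to choose them, these numbers could differ by 1 call at most, so no test of stage is given for the leading regions. The stage was not used to choose the other regions. Of all 15182 regions tested, 0.402% passed, 0.00659% (1 region) as higher in post and 0.395% (60 regions) as higher in pre. The split differed between settings: with lists shortened to at most 14008 peaks 36 were higher in post and 15 in pre, and by limma without weights 2394 and 15. With the donors as pairs 39 passed, all higher in pre. Plekha2 region 3, with 4 post and 0 pre calls, had 3.14 post calls expected and did not pass (exact p = 0.474, adjusted p = 1). For a region with 4 calls this is the most uneven split towards post. The weighted exact test therefore could not have called it higher in post, and nothing is concluded from that result. Plekha2 region 1 was called in 7 post and 4 pre libraries (exact p = 1, adjusted p = 1), and Mctp1 region 4 in 6 and 5 (exact p = 0.271, adjusted p = 1). In all, 0 of these 3 regions passed by the weighted exact test, Fisher's exact test, limma on the calls or the test within donor pairs. The unadjusted p was under 0.05 for 0 of them by the weighted exact test and for 1, Plekha2 region 3, by limma (p = 0.0269, adjusted p = 0.0745). Another 6 regions had too many or too few calls to be tested, and none of the 12 was called in all 16 libraries, so the comparison of peak areas between stages, holds none of them. In it 1.81% of 5262 regions passed by limma, 0.969% (51 regions) higher in post and 0.836% (44 regions) higher in pre, and the split was 11 and 17 with area per base and 39 and 54 with the donor block.

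Within young HSCs, 0.744% of 8867 regions passed between post and pre. Here only Plekha2 region 3 fell in the range tested, at 4 of 4 post and 0 of 4 pre libraries (exact weighted test, p = 0.480, adjusted p = 1). With 3.43 post calls expected, even this most uneven split could not pass as higher in post, so the test cannot decide. The leading regions were called in 7 of these 8 libraries, with young pre 4 the exception, and could not be tested. Within old HSCs, 0.00963% of 10384 regions passed. Plekha2 region 1 was called in 3 of 4 old post and 1 of 4 old pre libraries (exact p = 0.194, adjusted p = 1), and Mctp1 region 4 in 2 of 4 of each (exact p = 1, adjusted p = 1).

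Across the genome 36 regions differed from the pattern of the leading regions in 1 library of 16, and 250 in 2. For 17 of the 36 that library was young pre 3, which did not call them, and for 7 it was old post 3, which did. Ranked by peak area, the most similar regions of other genes lay near Actb, the cytoskeletal actin gene (young pre 3, old pre 1, young post 4, old post 0), Fscn1, an actin-bundling protein gene (3, 0, 3 and 0 in that order), Epb41l4b (2, 0, 4 and 0), Ablim1, an actin-binding LIM protein gene (3, 0, 4 and 1), and Skida1 (2, 0, 4 and 0). Likeness was counted over the 16 libraries, which share list length as a source of variation, so no test is attached.

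No region of the neighbouring genes was called in young libraries alone. Next to Plekha2, the single region of Htra4, a serine protease gene, was called in 7 of 8 young and 7 of 8 old libraries. Tacc1, a gene of a coiled-coil protein on the other side, had 7 regions, 6 of them with more young than old calls, 1 with more old calls and 0 without an old call. Near Mctp1, the region of Fam81b was called in 5 young and 4 old libraries, and Slf1 had no region. Near Kctd20, the region of Stk38, a kinase gene, was called in 7 young and 7 old libraries, and that of Pxt1 in 1 young and 3 old. Of the 6 flanking regions that could be tested between the ages 0 passed, against 0.27% of all regions tested, so the count does not set them apart. The smallest p was at Pxt1 (exact weighted test, p = 0.0564, adjusted p = 0.812).

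Genes that act with these 3 were taken from 3 lists. None of the lists held a region past the threshold between the ages, against 0.27% of all 15182 tested regions, of which 693 had an unadjusted p under 0.05. For PI 3-kinase signalling, 37 of 37 genes had 155 regions, and 0 of 76 tested passed between old and young (2 at an unadjusted p under 0.05 by the weighted exact test, and 0 passed by Fisher's test, limma or the test within same-numbered pairs). The median difference in calls was -2 (old minus young), as over all tested regions. A region near Phlpp1, which encodes a phosphatase of Akt, had 6 young calls and 1 old call (exact weighted test, p = 0.0216, adjusted p = 0.750). Regions of Foxo3, a transcription factor restrained by Akt, and Pik3cg, a catalytic subunit gene, each had 6 young and 2 old calls. Another Foxo3 region (chr10:42251144-42251623), named after its values were seen, went the other way with 1 young and 4 old calls (exact weighted test, p = 0.00986, adjusted p = 0.411). A region of Pik3cb, which encodes another catalytic subunit, had 4 young calls, all after transplantation, and 0 old calls. Plekha1, the closest relative of Plekha2, had regions in 15, 15 and 12 of 16 libraries.

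For C2-domain proteins and calcium stores, 31 of 38 genes had 90 regions, and 0 of 39 tested passed (2 unadjusted by the weighted exact test, 0 passed by the other tests), with a median difference of -2 calls. Orai1, a store-operated calcium channel gene, had 7 young and 2 old calls at a region within the gene (exact weighted test, p = 0.00797, adjusted p = 0.395). A region of C2cd2, a C2-domain protein gene, stood the other way, with 0 young and 4 old calls (exact weighted test, p = 0.00131, adjusted p = 0.132). The other C2cd2 region was called in all 16 libraries. A region of Atp2b1, a calcium pump gene, had 4 young and 0 old calls. Mctp2, the relative of Mctp1, had 4 regions, called in 14, 6, 4 and 4 libraries. A pair of these, called in the 4 young post libraries alone, repeats the pattern of Plekha2 region 3.

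For KCTD proteins and cullin 3, the ubiquitin ligase scaffold that some BTB proteins bind, 20 of 30 genes had 58 regions, and 0 of 24 tested passed (2 unadjusted by the weighted exact test, 0 passed by the other tests), with a median difference of -1. A region of Klhl6, a BTB and kelch protein gene, had 6 young calls (2 pre, 4 post) and 0 old calls (exact weighted test, p = 0.00308, adjusted p = 0.246). A region of Kctd17 had 6 young and 3 old calls, a region of Keap1, the adaptor that controls the oxidative stress factor Nrf2, 5 and 2, and a region of Klhl9 4 and 1. At the other regions of these genes the difference in calls (old minus young) was -1 or -2, except for 0 at a Klhl6 region (chr16:19884175-19884665). A region of Kctd15 (chr7:34655433-34655874), also named after its values were seen, had 4 young and 6 old calls (exact weighted test, p = 0.00820, adjusted p = 0.395). Btbd10, related to Kctd20 and also reported to act on Akt, had regions in 16 and 15 libraries. Between stages 0 regions of the 3 lists passed by the weighted exact test (5, 2 and 0 at an unadjusted p under 0.05, and 853 of all 15182). Limma on the calls, without weights, called 11 of 76, 5 of 39 and 4 of 24, near its share of 15.9% (2409) over all regions tested. At regions called in all 16 libraries, 0 of 18, 14 and 9 passed between stages on peak area by limma, with 0, 1 and 0 at an unadjusted p under 0.05, against 791 of all 5262.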

How the data were processed

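The authors called peaks separately for each library; per the submitters' processing notes, Genrich was used on build mm10, after trimming with Trim Galore and cutadapt. For the aligner, tool versions and settings: not given in the sources used here. Column 7 of the deposited lists is a score, the area of a peak's significance curve, and column 5 is a score derived from it. Columns 8 and 9 of the deposited lists are -log10 p and -log10 q of the summit. None is normalised between libraries, so presence of a peak was compared. Of 387029 peaks, 393 on scaffolds were left out. Gene spans came from RefSeq (GRCm38.p6).

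Differences in calls were tested, two-sided, by the exact distribution of calls given their number, with library weights from a Rasch model fitted to all regions. Only regions with 4 to 12 calls among 16 libraries (3 to 5 among 8) were tested, and Benjamini-Hochberg adjustment covered all of these, at 0.05. Peak areas of regions called in all 16 libraries were ranked within a library and compared with limma 3.58.1 (R 4.3.3). Other steps used Python 3.11.15, numpy 2.4.6, pandas 2.3.3, scipy 1.17.1 and matplotlib 3.10.9. Both tests were tested on simulated data. The series design takes each post library from the donors of the pre library with its age and number, and an alternative compared them as pairs (correlations of deviations from group means -0.350 to 0.277 over the 8 pairs). Labels do not link old and young libraries of a number. The p-values of limma measure the spread between these libraries. Those of the weighted exact test and Fisher's test come from the distribution of calls given their number, with libraries taken as independent, and measure no such spread.

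The genes and lists were chosen with earlier results of these data known. Named are all 12 regions, the 5 regions of other genes most like the leading regions in calls, the nearest gene on each side, up to 4 genes per list by difference in calls, and 3 regions on each side of the threshold. List genes named as relatives (Plekha1, Mctp2, Btbd10) were added after their values were seen. One marker gene is not reported here.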

Additional observations from a re-analysis of the deposited data

Results flagged for a closer look

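In young pre, 1 of the 12 regions was called in young pre 4, which held 9614 peaks, against 9 in each of the other 3 libraries, so young pre 4 lay far from the rest of its group. The same library stood apart at Plekha2 region 5, where the peak reached the 27.3 percentile of area against 88.9 to 97.1 in the other 3. At Plekha2 region 3, young post 1 stood at the 12.8 percentile and the other 3 young post libraries at 24.6 to 26.1. Chance alone sets about 1 in 20 groups of this size apart in this way.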

How the results depend on the processing

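The 3 regions tested between stages (Plekha2 regions 1 and 3, Mctp1 region 4) stayed above the threshold under every alternative in which they could be tested, with a smallest adjusted p of 0.0745 at Plekha2 region 3. The counts over all regions moved more. Between the ages 41 regions passed, and 12 (10 old-higher, 2 young-higher) at a peak area of at least 400, 16 with lists shortened to the third shortest, 7 on shared transposition days, 3 with the replicate block of same-numbered libraries, and 0 by Fisher's test and 0 by limma (323 and 1406 at an unadjusted p under 0.05). Leaving out single libraries gave 2 to 65, with 2 without old pre 3, 13 without old pre 1, 8, 14 and 7 without young post 1, 3 and 4, and 65 without old post 2, of which 0 were young-higher in each. Between stages 61 passed, and 40 at an area of at least 400, 0 by Fisher's test (2409 unadjusted), 2409 by limma (2394 post-higher, 15 pre-higher) and 39 with the replicate block by donor. Leaving out single libraries gave 34 to 71, with 34 without young pre 1 or old pre 3 and 39 without old pre 1. Within young, 66 became 29, 8, 0 and 7183 (7134 post-higher) at an area of at least 400, shortened lists, Fisher's test and limma, 52 with the donor block, and 2 to 83 without single libraries (6, 2 and 2 without young pre 1, 2 and 3). Within old, 1 became 0 under each of these 4 and 1 with the donor block, and 0 to 4 without single libraries (2, 4 and 0 without old pre 2, 3 and 4). For peak area, 95 (51 post-higher) became 28 (11 post-higher) with area per base and 93 (39 post-higher) with the donor block, and 41 to 145 without single libraries: 53, 52 and 145 without young pre 3, old pre 3 and old pre 4, 51, 42, 41 and 44 without young post 1 to 4, and 43 without old post 2. The causes were not tested. Leaving out the 3 shortest lists, chosen after seeing the data, gave 40 between the ages and 57 between stages.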
